A study of Cricetulus griseus with 19 samples.

Results

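Furin and Adam17 are proteases that process other proteins on the secretory route and at the cell surface, and their RNA was followed through 19 libraries of Paradaux, a CHO-K1 derived Chinese hamster cell line with a synthetic circuit for control of cell number. They are 2 genes, each represented by 1 of 46718 transcript targets in the quantified files, and each target was found by its RefSeq accession in a gene table of the hamster. They were chosen by their measured values, since both were higher in feedback cultures than in uncontrolled ones, so their levels against uncontrolled growth are given as a description with no test. Every library carries the same label for the cell line, CHO-K1, an ovary-derived line, and polyadenylated RNA was sequenced after a short period of growth kept below confluence. The groups were 7 long-term cultures under paradoxical feedback, 7 under negative feedback, 4 with uncontrolled growth and 1 library of the parental cells. Condition is the only difference among groups that the labels state, with no genotype, construct or added compound named for any of them. Whether the numbered cultures of a condition were kept apart is not stated either. The p-values therefore describe the variation among these libraries, which may be technical.

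Furin is a proprotein convertase of the trans-Golgi network and cell surface that cuts precursors after clusters of basic residues, and it matures growth factors, receptors and other proteases. Adam17, also called TACE, is a membrane-anchored metalloprotease that releases the outer parts of surface proteins, among them tumour necrosis factor and ligands of the EGF receptor. Adam17 is itself made as an inactive precursor whose prodomain is removed by Furin or related convertases, so the pair act in sequence in the known pathway. RNA levels do not give the amount or the activity of either enzyme. In bulk RNA, more cells expressing a gene and more RNA per cell cannot be told apart.

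The libraries held 9.91 to 13.2 M estimated counts. Negative feedback cultures 1 and 2 stood apart from cultures 3 to 7 across the whole transcriptome. On the first principal component, with 33.2% of the variance, cultures 3 to 7 scored 158 to 221. Cultures 1 and 2 scored -161 and -141, inside the span of the uncontrolled libraries (-169 to -122). The share of counts on targets under 800 nt moved the same way, at 6.12 to 7.22% in negative feedback cultures 3 to 7 and at 13.3 and 14.1% in cultures 2 and 1. It was 8.50 to 12.4% under paradoxical feedback, 12.2 to 13.4% in uncontrolled cultures and 11.8% in the parental library. The part of this share in the results on Furin and Adam17 was not tested as a cause. None of 9 marker genes for mesenchymal cells, epithelium or leukocytes could be matched to a target, so the label of the cell line could not be checked that way.

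Furin was lower in uncontrolled cultures than in every paradoxical feedback culture and than in 5 of 7 negative feedback cultures. Under paradoxical feedback it stood at 32.7, 19.0, 30.5, 12.7, 25.5, 36.2 and 27.2 CPM (a count scaled to a common library size, with TMM factors) in cultures 1 to 7. Negative feedback cultures 1 and 2 had 5.35 and 7.68 CPM, whereas cultures 3 to 7 had 45.9, 54.7, 58.7, 53.8 and 49.4 CPM. Uncontrolled cultures 1 to 4 had 7.81, 6.44, 6.56 and 8.79 CPM, and the parental library had 11.4 CPM. The paradoxical feedback cultures did not overlap the uncontrolled ones. Negative feedback cultures fell on both sides, with cultures 1 and 2 among or below the uncontrolled values and cultures 3 to 7 above every other library. The reads behind these values were 164 to 405 estimated counts under paradoxical feedback, 60 to 718 under negative feedback and 68 to 104 in uncontrolled cultures.

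Adam17 showed the same order of groups from a higher starting level and with smaller folds. Under paradoxical feedback it stood at 39.4, 29.6, 44.0, 41.8, 25.2, 28.7 and 39.9 CPM in cultures 1 to 7. Under negative feedback, cultures 1 and 2 had 18.2 and 16.6 CPM, and cultures 3 to 7 had 71.4, 77.1, 82.4, 79.8 and 65.7 CPM. The uncontrolled cultures had 19.1, 15.9, 17.9 and 20.9 CPM, against 23.7 CPM in the parental library. Again all 7 paradoxical feedback cultures lay above all 4 uncontrolled cultures and above the parental library. Negative feedback cultures 1 and 2 lay within the uncontrolled range. Adam17 was covered by 258 to 541 estimated counts under paradoxical feedback, 171 to 1008 under negative feedback and 168 to 247 in uncontrolled cultures.

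**Figure D1:**
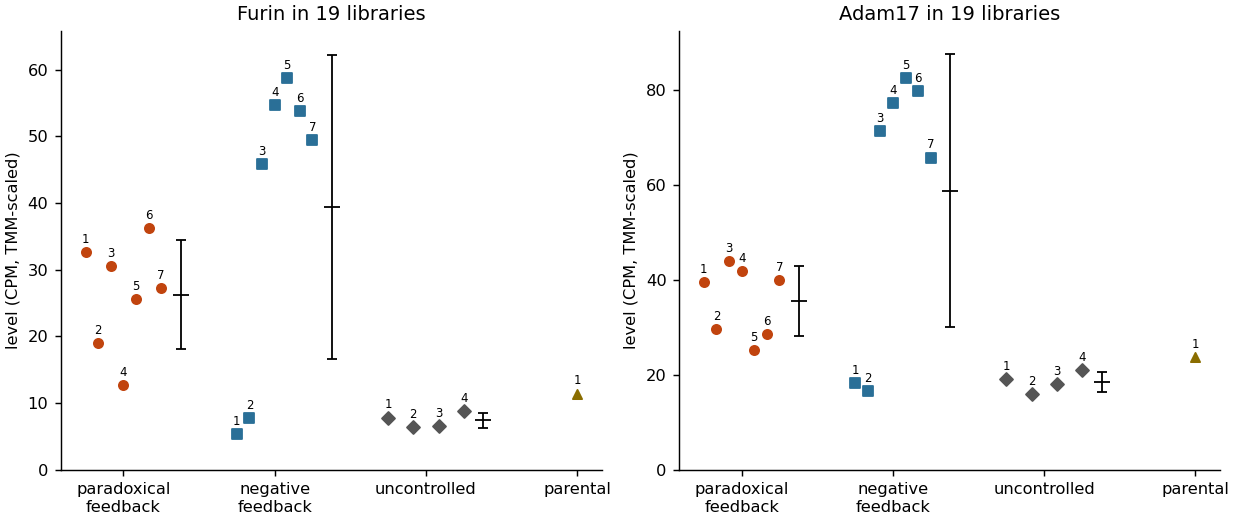
Level of Furin (left) and Adam17 (right) in CPM with TMM scaling for each of 19 libraries, numbered by culture within a condition; the black marks show the group mean ± SD. Negative feedback cultures 1 and 2 sit beside the uncontrolled cultures, cultures 3 to 7 sit highest, and the 7 paradoxical feedback cultures lie between.

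Furin averaged 26.3 ± 8.15 CPM in paradoxical and 39.4 ± 22.8 CPM in negative feedback cultures (SD, n = 7 each), against 7.40 ± 1.11 CPM in uncontrolled ones (SD, n = 4). Adam17 averaged 35.5 ± 7.45 CPM in paradoxical and 58.8 ± 28.8 CPM in negative feedback cultures (SD, n = 7 each), against 18.4 ± 2.07 CPM in uncontrolled ones (SD, n = 4). For both genes the order of the means was negative feedback, paradoxical feedback, parental and uncontrolled. The SD under negative feedback was larger than the distance between its mean and that of paradoxical feedback, for both genes. The single parental library exceeded the highest uncontrolled culture and was below the lowest paradoxical feedback culture, and it has no replicate.

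The mean of Furin under paradoxical feedback was 3.55 times that in uncontrolled cultures, and the mean of Adam17 was 1.92 times that in uncontrolled cultures. Under negative feedback the ratios were 5.32 for Furin and 3.19 for Adam17. Split by the sets that stood apart, Furin in negative feedback cultures 3 to 7 was at 7.10 times the uncontrolled mean, and in cultures 1 and 2 at 0.881 times. For Adam17 the ratios were 4.08 in cultures 3 to 7 and 0.944 in cultures 1 and 2. The values above the uncontrolled range under negative feedback were those of cultures 3 to 7, the same libraries in which short targets took 6.12 to 7.22% of the counts.

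On the log2 scale of the edgeR fit, Furin differed from uncontrolled growth by 1.83 ± 0.55 under paradoxical and 2.41 ± 0.57 under negative feedback (standard error derived from the F statistic of edgeR). Adam17 differed by 0.94 ± 0.39 under paradoxical and 1.67 ± 0.40 under negative feedback. Among 284 tested targets with a protein-coding symbol, the median log2 fold change was 0.55 under paradoxical and 0.44 under negative feedback, against 0.02 under paradoxical and 0.04 under negative feedback over all 28555 tested targets. Of those 284, 87.0% had a lower fold change than Furin under paradoxical feedback and 81.7% under negative feedback. For Adam17 the shares were 66.2% under paradoxical and 72.9% under negative feedback. Over all tested targets, 7.94% had every paradoxical feedback culture above every uncontrolled one, as both genes did, and 1.67% had every negative feedback culture above every uncontrolled one, as neither did. With the share of short targets as a covariate, the log2 fold changes under paradoxical feedback became 0.98 for Furin and 0.17 for Adam17, and those under negative feedback 0.51 and 0.24. Both comparisons share the same 4 uncontrolled cultures.

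The choice of genes did not use the direct comparison of the feedback conditions, and there no difference passed the test. Furin had a log2 fold change of -0.58 ± 0.44 for paradoxical over negative feedback, with an adjusted p of 0.571 by edgeR. Adam17 had -0.73 ± 0.32, with an adjusted p of 0.249 by edgeR. Over all tested targets edgeR called 0.27% in this comparison at an adjusted p under 0.05, and 17.6% had an unadjusted p under 0.05. Exact two-sided permutation over the 14 libraries gave p = 0.735 for Furin and 0.232 for Adam17 (0.735 and 0.508 after Benjamini-Hochberg adjustment over 3 tests), with differences in mean log2 CPM of -0.21 and -0.51.

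These averages joined negative feedback cultures on either side of the paradoxical feedback range. All 7 paradoxical feedback cultures were above negative feedback cultures 1 and 2 and below cultures 3 to 7, for Furin and for Adam17 alike. The same order held for 2.74% of all tested targets and for 11.3% of the 284 named ones, and on the first principal component the paradoxical feedback cultures also lay between these sets. Without negative feedback cultures 1 and 2 the log2 fold changes were -0.99 for Furin and -1.08 for Adam17. Without cultures 3 to 7 they turned to 2.02 and 1.04. The sets were recognised from the measured profiles, so no test is given for either value. The covariate for short targets also turned Furin to 0.47 and left Adam17 at -0.07.

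**Figure D2:**
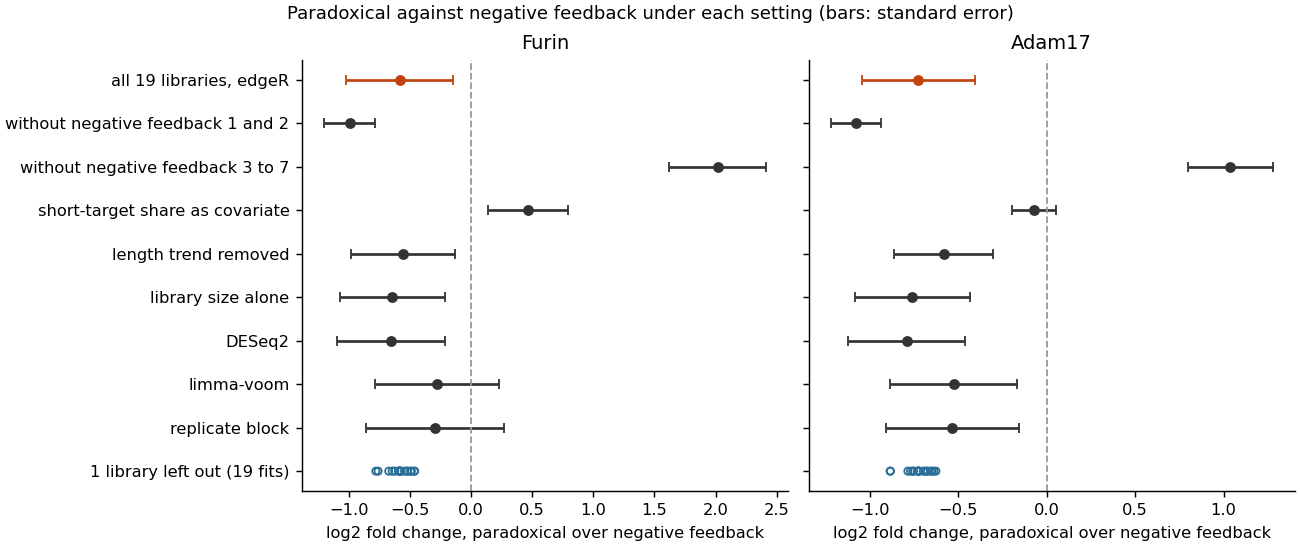
Log2 fold change of Furin (left) and Adam17 (right) for paradoxical over negative feedback under each setting; filled points show the estimate with its standard error and open points show 19 fits that leave out 1 library each. The estimate stays below 0 in every fit that leaves out 1 library, and turns to 2.02 and 1.04 without negative feedback cultures 3 to 7.

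Counts depend on transcript length, so the pair was compared in TPM, which the deposited files scale by effective length (2119 nt for Furin, 2921 nt for Adam17). In the uncontrolled cultures the level of Furin was about 0.552 ± 0.0333 of that of Adam17 (SD, n = 4), at 3.71 TPM for Furin and 6.69 TPM for Adam17. Under paradoxical feedback both averaged close to 13 TPM, at 13.2 ± 3.66 TPM for Furin and 13.3 ± 3.83 TPM for Adam17 (SD, n = 7). In negative feedback cultures the averages were 25.5 ± 15.6 TPM for Furin and 27.3 ± 15.0 TPM for Adam17 (SD, n = 7). Among all tested targets in that group, 81.1% had a lower mean TPM than Furin and 82.1% a lower one than Adam17. In uncontrolled cultures these shares were 56.4% for Furin and 65.3% for Adam17.

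The ratio of Furin to Adam17 TPM is free of any scaling between libraries, and its spread was widest under paradoxical feedback, with means of 1.07 ± 0.419 there and 0.836 ± 0.230 under negative feedback (SD, n = 7 each). It was 1.14, 0.886, 0.958, 0.418, 1.39, 1.74 and 0.938 in paradoxical feedback cultures 1 to 7. In negative feedback cultures it was 0.405 and 0.637 in cultures 1 and 2, and 0.887, 0.977, 0.982, 0.929 and 1.04 in cultures 3 to 7. Uncontrolled cultures lay between 0.504 and 0.580, and the parental library was at 0.665. Paradoxical feedback culture 4 was thus below every uncontrolled culture, while cultures 5 and 6 were above every other library. For the mean log2 ratio, paradoxical minus negative feedback was 0.30, with an exact two-sided permutation p of 0.339 (0.508 adjusted over the same 3 tests).

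The reads on the pair give the counting error behind these ratios. In paradoxical feedback culture 6, Furin took 378 of the reads on both genes and Adam17 299, a Furin share of 55.8% (95% Clopper-Pearson interval 52.0 to 59.6%). Culture 5 was at 50.3% (45.9 to 54.7%). In culture 4 Furin had 164 reads and Adam17 541, a share of 23.3% (20.2 to 26.6%). The intervals of cultures 5 and 6 do not meet that of culture 4 or those of the uncontrolled cultures, whose shares were 26.8 to 29.6%. The interval of culture 4 overlaps those of the uncontrolled cultures. Negative feedback cultures also had intervals that do not meet, at 22.7% in culture 1 (17.8 to 28.3%) and 42.9% in culture 7 (40.4 to 45.5%). These intervals cover counting error within 1 library only, not variation between cultures. The reads have no molecular identifiers, so copies of 1 molecule cannot be recognised and the intervals may be too narrow.

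**Figure D3:**
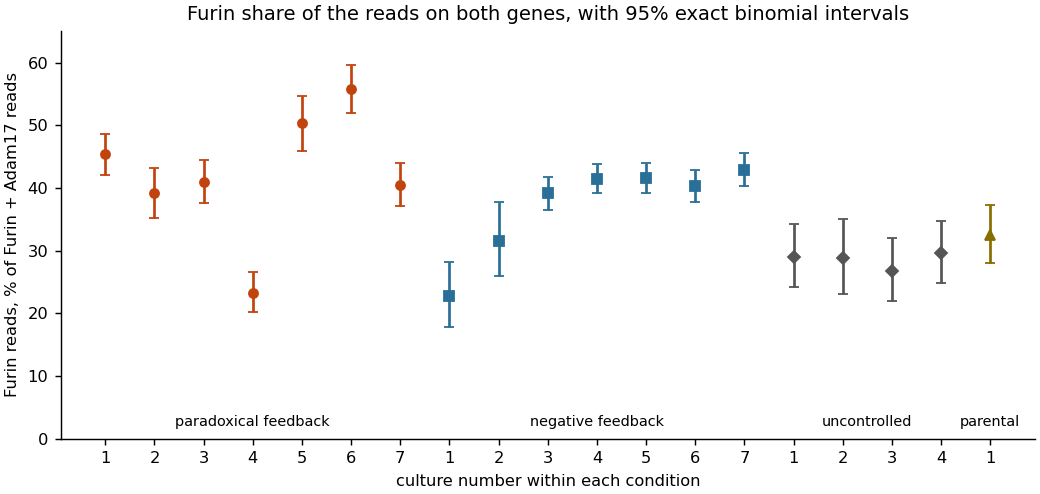
Furin reads as a percentage of the reads on Furin and Adam17 together, 1 point per library with its 95% exact binomial interval, by culture number within each condition. Paradoxical feedback cultures range from 23.3% in culture 4 to 55.8% in culture 6, while uncontrolled cultures range from 26.8 to 29.6%.

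Within the 7 paradoxical feedback cultures the genes showed no relation that passed the test. Pearson's r of log2 CPM was -0.14 (exact permutation p = 0.787) and Spearman's rho was -0.14 (exact permutation p = 0.783, n = 7). Without cultures 2 and 4, the farthest from the median of Furin, r was 0.12. Adam17 had r = -0.67 with the share of short targets (exact permutation p = 0.126) and rho = -0.61 (exact permutation p = 0.167, n = 7), and r turned to 0.40 without cultures 5 and 6. Furin had r = 0.26 with that share (exact permutation p = 0.610) and rho = 0.29 (exact permutation p = 0.556, n = 7), and r was -0.05 without the same cultures. After Benjamini-Hochberg adjustment over 3 relations, the p-values of r were 0.787, 0.379 and 0.787 in the order given. Negative feedback cultures form separate sets and uncontrolled cultures number 4, so no relation was tested within them. Over the 7 negative feedback cultures r of log2 CPM for Furin with Adam17 was 0.99. That value spans the split between cultures 1 and 2 and cultures 3 to 7.

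**Figure D4:**
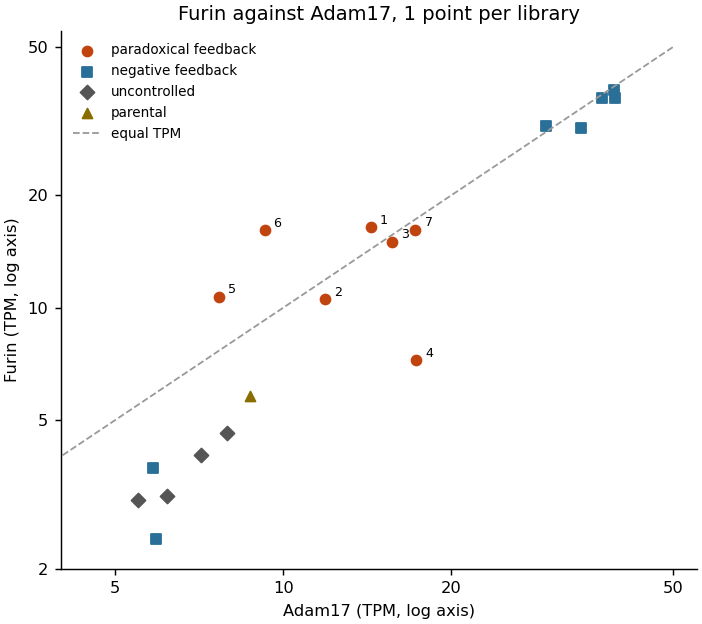
Furin against Adam17 in TPM on log axes, 1 point per library, with paradoxical feedback cultures numbered and the dashed line marking equal TPM. Uncontrolled cultures, the parental library and negative feedback cultures 1 and 2 lie below the line, negative feedback cultures 3 to 7 lie near it at the highest levels, and paradoxical feedback cultures lie on both sides, with cultures 1, 5 and 6 above it and cultures 2, 3, 4 and 7 below it.

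Of 144 symbols on 8 lists for this pathway, 7 were matched to a target, Furin and Adam17 among them, and 2 lists, the regulators of Adam17 and the trafficking of Furin, had no match. The lists were chosen with earlier results of these data known, so calls on their members are not independent of that choice. Of 26 listed substrates of Adam17, Sdc1 and Icam1 were tested, and edgeR called both higher under paradoxical feedback and both higher under negative feedback than in uncontrolled cultures. Among all tested targets, edgeR called 4.93% higher and 1.5% lower under paradoxical feedback, and 8.64% higher and 1.11% lower under negative feedback. Among the 284 named targets it called 19.7% higher and 1.06% lower under paradoxical feedback, and 28.2% higher and 0.352% lower under negative feedback. Of the 5 tested members other than Furin and Adam17, 2 were called higher under paradoxical and 3 under negative feedback, and 0 lower in either. The 3 included Mbtps2, which was near the detection limit outside negative feedback cultures 3 to 7. All 5 had an unadjusted p under 0.05 under negative feedback, as did 31.2% of all tested targets in either direction, and none of the 5 had one as lower in either comparison. DESeq2 called 2 and 5 of them higher and limma-voom 1 and 2, with 0 lower by any of the 3 tools.

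Sdc1, syndecan-1, is a surface proteoglycan whose outer part is shed by metalloproteases. It ranged from 32.3 to 98.9 CPM under paradoxical feedback and from 83.4 to 109 CPM in negative feedback cultures 3 to 7. Negative feedback cultures 1 and 2 were at 10.8 and 11.3 CPM, uncontrolled cultures at 8.81 to 16.5 CPM and the parental library at 30.9 CPM. The log2 fold change over uncontrolled growth was 2.25 ± 0.58 under paradoxical feedback (edgeR adjusted p = 0.0316) and 2.59 ± 0.59 under negative feedback (edgeR adjusted p = 0.0236). Leaving out uncontrolled culture 1, 2, 3 or 4 ended both calls, at adjusted p-values of 0.0611 to 0.101 under paradoxical and 0.0525 to 0.0774 under negative feedback by edgeR. Leaving out paradoxical feedback culture 6 ended the first call (edgeR adjusted p = 0.0508), and limma-voom made neither call. The replicate block also ended both, at edgeR adjusted p-values of 0.0584 under paradoxical and 0.577 under negative feedback, and the fit of the compared groups alone ended the call under negative feedback (0.0798). With the short-target covariate the log2 fold change was 1.27 under paradoxical feedback, still called, and 0.54 under negative feedback, no longer called (edgeR adjusted p = 0.904). Without negative feedback cultures 3 to 7 the log2 fold change under negative feedback was -0.08.

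Icam1, an adhesion molecule that Adam17 can release from the surface, had 204 to 681 CPM under paradoxical feedback. The uncontrolled cultures had 81.9 to 172 CPM, and the parental library was above all of them at 198 CPM. Paradoxical feedback was higher than uncontrolled growth by 1.77 ± 0.38 on the log2 scale (edgeR adjusted p = 0.0172). This call held in 27 of 30 alternatives. The exceptions were the replicate block (edgeR adjusted p = 0.118) and the fits without uncontrolled culture 1 (0.0710) or 2 (0.0665). Negative feedback cultures 3 to 7 had 298 to 504 CPM and cultures 1 and 2 had 133 and 160 CPM, and the group was higher than uncontrolled growth by 1.37 ± 0.37 on the log2 scale (edgeR adjusted p = 0.0310). That call ended without any 1 of uncontrolled cultures 1 to 4 or of negative feedback cultures 3 to 7, at adjusted p-values of 0.0525 to 0.0998 by edgeR. It also ended with the replicate block (edgeR adjusted p = 0.577), in the fit of the compared groups alone (0.0798) and with the short-target covariate, where the log2 fold change was 0.66 (0.818). Without cultures 3 to 7 together the log2 fold change was 0.35.

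Mmp14, a membrane-anchored matrix metalloprotease whose precursor Furin cuts, was the only tested member besides Adam17 of 30 listed substrates of Furin. It ranged from 32.1 to 117 CPM under paradoxical and from 29.1 to 119 CPM under negative feedback. Uncontrolled cultures had 15.0 to 38.2 CPM, which overlapped both feedback groups, and the parental library was above all of them at 52.9 CPM. Over uncontrolled growth, the log2 fold change of Mmp14 was 1.06 ± 0.45 under paradoxical feedback (edgeR adjusted p = 0.147). Under negative feedback it was 1.39 ± 0.45 (edgeR adjusted p = 0.0591), and neither passed the threshold.

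Mbtps1, the site-1 protease and a relative of Furin in the convertase family, was the other tested member of 9 listed convertases. It stood at 98.6 to 135 CPM under paradoxical feedback, 164 to 189 CPM in negative feedback cultures 3 to 7, 92.6 and 97.9 CPM in negative feedback cultures 2 and 1, and 94.6 to 110 CPM in uncontrolled cultures. Its log2 fold changes of 0.23 ± 0.18 and 0.58 ± 0.18 under paradoxical and negative feedback had edgeR adjusted p-values of 0.438 and 0.0523. Mbtps2, the site-2 protease that cuts membrane proteins after site-1 cleavage, has shared reads and was near the detection limit outside negative feedback cultures 3 to 7. There it had 2.43 CPM or more, against 0.0978 to 0.926 CPM under paradoxical feedback and 0 to 0.422 CPM in uncontrolled cultures, 2 of which were at 0. It was called higher under negative feedback by edgeR (adjusted p = 0.0329) but not under paradoxical feedback (adjusted p = 0.467). With values near the detection limit elsewhere, the call rests on negative feedback cultures 3 to 7. The call ended without any 1 of uncontrolled cultures 1 to 4 or negative feedback cultures 3, 4, 5 and 6, with edgeR adjusted p-values of 0.0525 to 0.0925. It also ended with the replicate block (edgeR adjusted p = 0.577), in the fit of the compared groups alone (0.0814) and with the short-target covariate, where the log2 fold change was 1.16 (0.949). Without cultures 3 to 7 together its log2 fold change was 0.67.

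Between paradoxical and negative feedback, edgeR called 0 of these 5 genes, limma-voom called 0 (1 at an unadjusted p under 0.05) and DESeq2 called 1 as lower. At an unadjusted p under 0.05 by edgeR, 2 were lower under paradoxical feedback, namely Mbtps2 (log2 fold change -3.46 ± 0.97) and Mbtps1 (-0.34 ± 0.15). As with Furin and Adam17, each of the 5 had negative feedback cultures 1 and 2 within or below the uncontrolled range and cultures 3 to 7 above it. That split was common, at 15% of all tested targets and 38.7% of the 284 named ones.

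**Figure D5:**
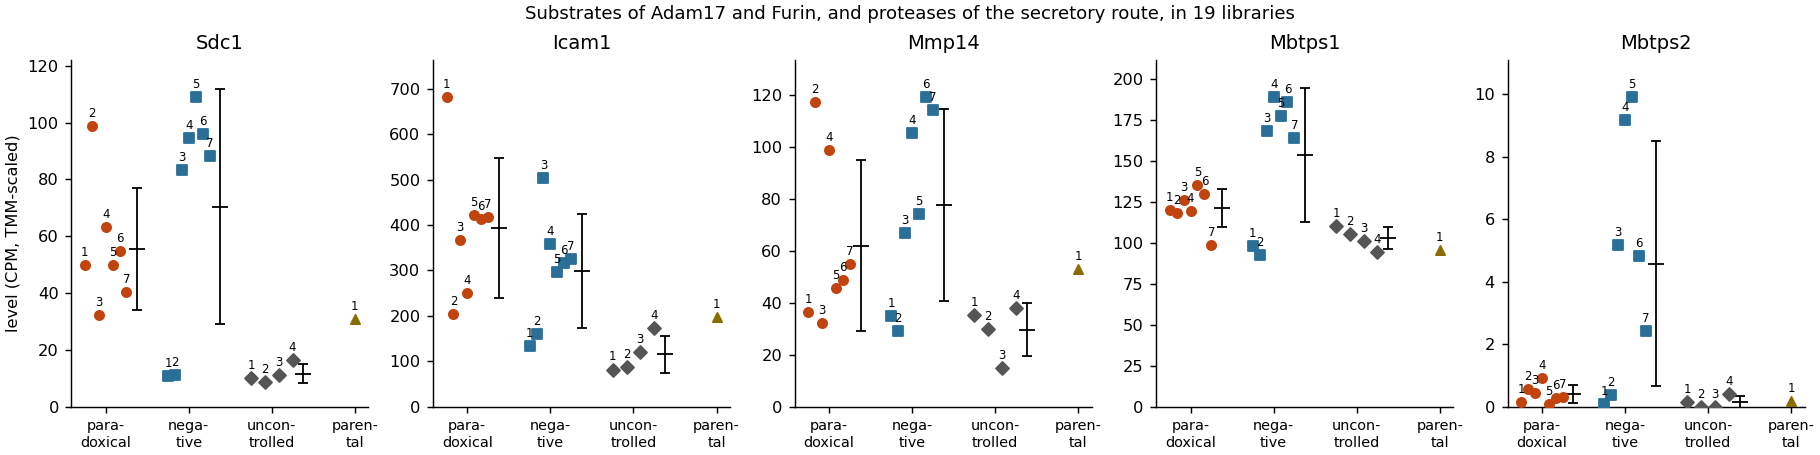
Level in CPM with TMM scaling of Sdc1, Icam1, Mmp14, Mbtps1 and Mbtps2 in each library, numbered by culture, with group mean ± SD in black and a separate axis for each gene. In each panel negative feedback cultures 3 to 7 lie above cultures 1 and 2, and in Sdc1 and Icam1 all paradoxical feedback cultures lie above all uncontrolled ones.

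By likeness of pattern, the genes nearest to Furin and to Adam17 were different sets, and neither gene was among the 5 nearest of the other. Likeness was ranked by Pearson's r of log2 CPM over all 19 libraries among 241 other named targets whose mean log2 CPM was 1 or more. All of these share the libraries and the split among negative feedback cultures. For Furin the top 5 were Dicer1, the enzyme of microRNA maturation (0.97), Scarb1, a lipoprotein receptor (0.96), Gna11, a G protein alpha subunit (0.95), Cdc25b, a phosphatase that activates mitotic kinases (0.95) and Cdk2, a cell-cycle kinase (0.95). Adam17 held rank 33 for Furin, at 0.91. For Adam17 the top 5 were Noc3l, a protein of ribosome assembly (0.99), Glg1, a Golgi glycoprotein (0.98), Pld1, a phospholipase (0.98), Slc31a1, a copper transporter (0.98) and B4galt1, a galactosyltransferase (0.98). Furin held rank 34 for Adam17.

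Likeness over all libraries follows the order of the groups, and within the 7 paradoxical feedback cultures it was less even. There r with Furin was 0.77 for Dicer1, 0.61 for Cdc25b, 0.59 for Cdk2, 0.53 for Scarb1 and 0.02 for Gna11. With Adam17 it was 0.87 for Noc3l, 0.86 for B4galt1, 0.77 for Pld1, 0.71 for Slc31a1 and 0.65 for Glg1. Without negative feedback cultures 3 to 7, over 14 libraries, r was 0.91 to 0.95 for the 5 nearest to Furin and 0.92 to 0.97 for the 5 nearest to Adam17. For Furin with Adam17 it was 0.82 over the same libraries. Dicer1 averaged 12.7 CPM in paradoxical and 41.7 CPM in negative feedback cultures, against 0.288 CPM in uncontrolled ones. Negative feedback cultures 1 and 2 had 0 to 0.195 CPM of Dicer1 and the parental library 0.839 CPM. Dicer1 was thus near the detection limit in these libraries and in the uncontrolled cultures. Cdc25b averaged 44.4 CPM in paradoxical and 50.7 CPM in negative feedback cultures, against 11.7 CPM in uncontrolled ones. Noc3l averaged 34.1 CPM in paradoxical and 65.3 CPM in negative feedback cultures, against 14.2 CPM in uncontrolled ones. Dicer1, Scarb1 and Gna11 have shared reads, so their targets may not hold all reads of those genes.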

How the data were processed

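Polyadenylated RNA of 19 libraries was quantified by the authors with kallisto after trimming with Trim Galore, per the submitters' processing notes. Versions, genome build and annotation were not given in the sources used here. Deposited estimated counts are reads assigned to each transcript target, shared among similar targets and so not always whole. The deposited TPM values scale them by effective length to a common total per library. A RefSeq gene table of another source (CriGri-PICRH-1.0) matched 528 of 46718 targets, 334 of them protein coding, and was used for names only. The other transcripts of Furin and Adam17, if any, were not analysed here, so values are those of 1 target per gene. The Adam17 counts were whole within 1e-06 in all 19 libraries and those of Furin in 16, so Furin shared a few reads with another target.

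Estimated counts were rounded, filtered with filterByExpr (28555 targets left), and scaled with TMM factors. The model, from edgeR 4.0.16 (R 4.3.3), held a coefficient for each group over all 19 libraries and was tested by quasi-likelihood. Standard errors given for edgeR are the absolute log2 fold change divided by the square root of the F statistic. P-values were adjusted by Benjamini-Hochberg over all tested targets, with a threshold of 0.05. The planned tests were per transcript target. CPM uses TMM-scaled library sizes and log2 CPM a prior count of 2. DESeq2 1.42.0, limma-voom (limma 3.58.1), other scalings, filters and left-out libraries were alternatives. The fit was run on simulated data with known changes. The simulated libraries held no split within negative feedback, so that run cannot judge the fit under such a split. Pairs of libraries within a group differed beyond sampling noise (chi-square per degree of freedom from 18.8 to 206 over 48 pairs), so none was treated as a duplicate.

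Named genes were Furin, Adam17, matched members of the lists and, for each of both, the 5 named targets with the highest correlation. The members and lists were chosen with earlier results of these data known. The exact tests and the ratio of both genes were added to describe the pair, the ratio after the data were seen.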

Additional observations from a re-analysis of the deposited data

How the results depend on the processing

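Furin and Adam17 were chosen as higher in feedback cultures, so the direction over uncontrolled growth was set by that choice and is no support. Over 30 alternatives the described log2 fold changes under paradoxical feedback were 0.98 to 1.94 for Furin and 0.17 to 1.05 for Adam17. Under negative feedback 1 of 30 alternatives turned the sign, where leaving out cultures 3 to 7 gave -0.18 for Furin and -0.081 for Adam17. For paradoxical over negative feedback, leaving out 1 library gave -0.78 to -0.46 for Furin and -0.89 to -0.63 for Adam17. Without negative feedback cultures 1 and 2 the values were -0.99 and -1.08, and without cultures 3 to 7 they were 2.02 and 1.04; the covariate for short targets gave 0.47 for Furin. The cause was not tested. In the same comparison, without cultures 3 to 7, Mbtps1 was at 0.35, Mbtps2 at 0.74, Mmp14 at 0.97 and Sdc1 at 2.34, and under negative feedback against uncontrolled Mbtps1 was at -0.11 and Sdc1 at -0.080. With the covariate Mmp14 was at 0.13 and Sdc1 at 0.73 between feedback conditions, and Mbtps1 at -0.016 and Mbtps2 at -0.42 for paradoxical feedback against uncontrolled; limma-voom gave Sdc1 0.0066. The correlation of Furin with Adam17 under paradoxical feedback was 0.12 without the 2 farthest cultures and -0.30 to 0.31 with 1 left out. The difference in log2 ratio of Furin to Adam17 kept its sign, at 0.14 to 0.51 with 1 culture left out. Its size depended on the sets, at 0.04 without negative feedback cultures 1 and 2 and 0.96 without cultures 3 to 7.

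Counts of called targets depended strongly on the setting. The sets of negative feedback cultures were recognised from the measured profiles, so counts without either set are a description and not a test. For paradoxical against negative feedback edgeR called 77, against 0 with the length trend removed (4426 at an unadjusted p under 0.05), 0 in the fit of the 2 groups alone (2920) and 0 with the replicate block (2204), 2 without a filter, 11 with DESeq2 size factors, 42 with library size alone, 297 by limma-voom, 697 with the covariate, 1797 by DESeq2, 2454 without negative feedback cultures 3 to 7 and 5937 without cultures 1 and 2; with 1 library left out it was 0 to 989. For negative feedback against uncontrolled it was 2785, against 0 with the replicate block (1419 at an unadjusted p under 0.05), 6 with the covariate, 10 in the fit of the 2 groups, 13 without cultures 3 to 7, 5042 by limma-voom, 6424 by DESeq2 and 11459 without cultures 1 and 2; with 1 library left out it was 7 to 6938. For paradoxical feedback against uncontrolled it was 1834, against 329 with the replicate block, 1144 with the covariate, 4762 by DESeq2, 4955 in the fit of the 2 groups, 4926 without negative feedback cultures 3 to 7 and 5675 without cultures 1 and 2; with 1 library left out it was 127 to 3204.

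The labels number the cultures in each group, and the deviations of same-numbered cultures were at most weakly correlated. The correlation exceeded 0.1 in 1 of 7 pairs between feedback conditions (-0.16 to 0.11), and in 0 of 4 pairs in each comparison with uncontrolled cultures. The own number was the best match in 3 of 7, 2 of 4 and 3 of 4, so some weak pairing remains possible. With the replicate block, paradoxical over negative feedback was -0.29 for Furin and -0.53 for Adam17, on the same side of the threshold. Furin had 60 reads in its lowest library, which limits the precision of its ratio there.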
